A study of Sus scrofa with 18 samples.

Results

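miR-21 is a microRNA (miRNA), a short RNA that base-pairs with messenger RNAs and lowers their output. Its members here are all read sequences that the deposited table of sequence variants lists under the mature name ssc-miR-21, each taken once: 318 of 16636 distinct sequences, and 1 of 240 mature miRNAs. All 318 belong to 1 hairpin precursor, 0 are listed under another miRNA, and 0 other mature miRNAs in the table share bases 2 to 8 of the annotated sequence. No arm label (-5p or -3p) is attached to any of them. Of the 318, 309 had a count in the 18 libraries and 9 had none.

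The small RNAs came from 18 Italian Large White pigs under 1 housing and diet, from fat lying beneath the skin of the back (backfat), and the study set pigs that deposit much backfat against pigs that deposit little. The high backfat class held 5 castrated males and 4 females and the low backfat class 4 castrated males and 5 females, with 1 library per animal and a separate animal number for each. All weighed 150 to 160 kg, and high class pigs were aged 241 ± 4.47 days, against 243 ± 6.04 days for low class pigs (SD, n = 9 each). Library totals spanned 12600652 to 31146147 counts in the high class, against 10225931 to 37619209 in the low class. miR-143-3p, abundant in fat but not exclusive to it, averaged 180500 counts per 1000000 counts (CPM) in the high class, against 175400 CPM in the low class, while the liver miRNA miR-122 had a highest value of 7.68 CPM in the high class, against 36.2 CPM in the low class.

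miR-21 is known from many mammalian tissues for repressing brakes on growth and survival such as PDCD4 and the Sprouty proteins, and it is raised in tumours and in inflamed and fibrotic tissue. In human fat-derived stromal cells it has been described as promoting fat cell differentiation. The enzymes Drosha and Dicer cut a miRNA out of its hairpin, and shifts in these cuts, trimming and bases added by terminal nucleotidyltransferases give length and end variants called isomiRs. A changed 5′ start moves the seed, bases 2 to 8, which finds the targets, while a changed 3′ end leaves the seed as it is. In human cells, PAPD5 adds adenosine to the 3′ end of miR-21.

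The annotated mature sequence lies at positions 48 to 69 of the extended precursor in the deposited table. It is shown with its seed in capitals, in DNA letters as deposited (T for U), beside the most abundant forms that start 1 base later or 1 base earlier, whose own bases 2 to 8 are in capitals. These are shown because the capitals are the part that differs for target choice.
annotated start: tAGCTTATcagactgatgttga
start 1 base later: aGCTTATCagactgatgttgact
start 1 base earlier: gTAGCTTAtcagactgatgttga

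The forms that carry the comparison of the backfat classes share the annotated start and differ at the 3′ end. They are shown with every base from annotated base 22, the last one, onward in capitals. The bases of the forms that run 1 and 2 bases past it were taken as templated, that is as copied from the hairpin, because the table lists these forms as length variants without a mismatch.
3 bases shorter: tagcttatcagactgatgt
2 bases shorter: tagcttatcagactgatgtt
1 base shorter: tagcttatcagactgatgttg
annotated end: tagcttatcagactgatgttgA
1 base longer: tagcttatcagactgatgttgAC
2 bases longer: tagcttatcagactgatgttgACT
1 base longer with an added A: tagcttatcagactgatgttgACA
1 base longer with an added C: tagcttatcagactgatgttgACC

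The total level of miR-21, summed over all its forms, was higher in most high backfat pigs, but the difference did not pass the test over all miRNAs. miR-21 ranked at place 13 of 240 mature miRNAs and held 1.27% of all counts. Scaled by TMM (edgeR's trimmed mean of M values), it had a lowest value of 4329, a median of 15020 and a highest of 27800 CPM in the high class, against 8811, 9963 and 12460 CPM in the low class. In 8 of 9 high libraries it lay above the highest low library, while high replicate 6, a female, lay below every low library. On this scale the classes thus overlapped through that animal. How many other miRNAs separate the classes to this degree was not counted. The means were 15850 ± 6427 CPM in the high class, against 10580 ± 1381 CPM in the low class (n = 9 each, SD). As a share of library counts, miR-21 held 1.55% ± 0.566 in the high class, against 1.06% ± 0.137 in the low class. By this share 6 of 9 high libraries lay above the highest low library, and high replicates 3, 5 and 6 lay below it.

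The log2 fold change of high over low backfat was 0.51 ± 0.21 (SE), with sex as a covariate (adjusted p = 0.127, quasi-likelihood F test of edgeR). Of the 221 miRNAs tested, 3.62% were called at an adjusted p under 0.05, and miR-21 was not one of them. Without high replicate 6 the log2 fold change was 0.62 and miR-21 was called (adjusted p = 0.0181 in edgeR). Leaving out each library in turn gave an adjusted p of 0.0181 to 0.325 in edgeR, and the call changed in 1 of 18 cases. The median log2 fold change over all 221 miRNAs was 0.04.

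The libraries carry codes that fall into 4 runs of neighbouring codes, each with both classes. The difference of mean log2 CPM, high minus low, was 0.83 in the run U966 to U969, 0.72 in U074 to U077, 0.09 in U134 to U139 and 0.90 in AC485 to AC488. The direction was the same in every run, and the smallest difference was in the run that holds high replicate 6. What a run of codes stands for is not stated in the labels.

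By sex, miR-21 was highest in high backfat castrated males, where it read 27800, 15020, 12690, 17830 and 21010 CPM, against 9275, 9548, 11600 and 12460 CPM in low backfat castrated males. All 5 high values lay above the 4 low values on this TMM scale. As a share of library counts, high replicates 3 (1.305%) and 5 (1.273%) lay below low replicate 9 (1.325%). How many other miRNAs separate these groups was not counted. In females it read 12560, 16870, 4329 and 14540 CPM in high backfat pigs and 11910, 9717, 8811, 11960 and 9963 CPM in low backfat pigs, with 3 high values above all low ones and 1 below them. In the edgeR fit of sex by class, the log2 fold change was 0.76 ± 0.31 in castrated males (adjusted p = 0.182, 3.98% of 226 miRNAs called) and 0.16 ± 0.30 in females (adjusted p = 0.892, 0.0% called). The difference of these fold changes was 0.60 ± 0.43 (adjusted p = 0.654, 0.0% called), so an effect that depends on sex was not shown. Without high replicate 6 the value in castrated males, from the same 4-cell fit with a smaller spread, was 0.68 and passed (adjusted p = 0.0436 in edgeR). Castrated males averaged 15250 ± 6055 CPM and females 11180 ± 3586 CPM (SD, n = 9 each), a difference of 0.34 ± 0.21 on the log2 scale with class as a covariate (adjusted p = 0.606, 0.0% called).

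**Figure D1:**
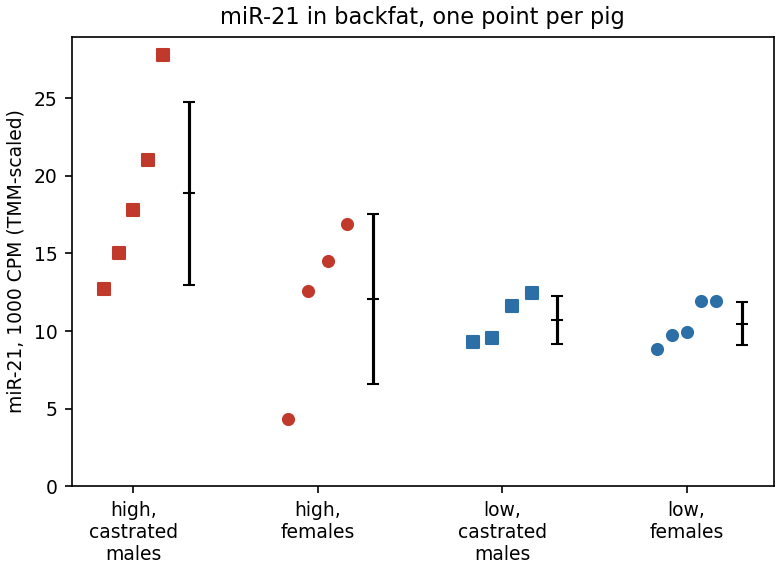
Level of miR-21 in TMM-scaled CPM (axis in units of 1000 CPM), 1 point per pig, in castrated males (squares) and females (circles) of the high (red) and low (blue) backfat classes. Black bars are the mean ± SD of each group; the highest value, 27800 CPM, is a high backfat castrated male, and the lowest, 4329 CPM, is high replicate 6.

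Levels in descending order of the group means were 18870 ± 5885 CPM in high backfat castrated males, 12070 ± 5456 in high backfat females, 10720 ± 1557 in low backfat castrated males and 10470 ± 1401 in low backfat females (SD, n = 5, 4, 4 and 5). The ranges of neighbouring groups in this order overlapped in each case. In bulk tissue, fewer cells of a type and less RNA per cell cannot be told apart, and this holds for every level given here.

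Cell type markers were read beside this level. Over all miRNAs tested, 3.62% were called and 128 of 221 had a positive log2 fold change. The leukocyte list (miR-142, miR-150 and miR-155 in the table) had 0 of 4 tested arms called and 4 of 4 with a positive log2 fold change. The median log2 fold change of its arms was 0.08, beside 0.04 over all miRNAs. Its summed level without TMM scaling, as for all lists here, was 1164 to 3167 CPM in the high class, against 1246 to 2987 CPM in the low class. Skeletal muscle markers had 0 of 4 tested arms called and 0 of 4 positive, with sums of 54.1 to 239 CPM in the high class, against 104 to 351 CPM in the low class. Mesenchymal markers had 1 of 5 arms called, miR-199a-3p, which fell by 0.42 on the log2 scale, with sums of 14490 to 24890 CPM in the high class, against 21190 to 33240 CPM in the low class. The fat tissue list, which holds miR-143-3p, had 0 of 8 tested arms called and 5 of 8 positive. Red blood cell markers had 0 of 3 tested arms called and 1 of 3 positive. The part of these cells in the level of miR-21 was not tested.

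Among miRNAs that have been described as raised together with miR-21 in inflamed or fibrotic tissue, 13 arms were tested, and 3 rose and 1 fell. Over all miRNAs, 3.62% were called in either direction. The list was drawn with earlier results of these data known, so this count is no test of the list. miR-222, a repressor of the cell cycle inhibitor p27, averaged 284 ± 87.9 CPM in the high class, against 144 ± 48.2 CPM in the low class (n = 9 each, SD), which is 0.98 ± 0.22 as a log2 fold change (SE, edgeR adjusted p = 0.0274). miR-221-5p from the same cluster rose by a log2 fold change of 1.06 ± 0.26 and miR-132, induced by CREB signalling, by 0.56 ± 0.15, both with an adjusted p of 0.0484 in edgeR, while miR-199a-3p fell. The level of miR-221-5p was low, with means of 11.6 CPM in the high class, against 5.2 CPM in the low class. Its more abundant arm miR-221-3p averaged 397 and 297 CPM and was not called (0.35 ± 0.17, adjusted p = 0.197 in edgeR). The median log2 fold change of the list was 0.05, beside 0.04 over all miRNAs, and 8 of its 13 arms were positive, beside 128 of 221. miR-199a-3p and miR-199b-3p share reads, so these arms are not separate, and miR-155-5p also stands in the leukocyte list.

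The miRNAs whose level went most closely with that of miR-21 over the 18 libraries were found by Pearson's r of log2 CPM. Of 220 miRNAs, 27 had an adjusted permutation p under 0.05. The highest r was that of miR-146b, a relative of miR-146a that dampens inflammatory signalling, at 0.847 (Spearman's rho 0.880, adjusted permutation p = 0.0022 for r and 0.0044 for rho). Its raw p of 1e-05 for r is the smallest the permutations can give. It had 742, 128, 465, 159, 159, 49.4, 136.2, 306 and 546 CPM in high replicates 1 to 9, against 132.2, 133.7, 75.4, 68.6, 34.6, 81.7, 125.5, 97.1 and 123 CPM in low replicates 1 to 9. High replicates 1, 9 and 3, all castrated males, held its highest levels, and high replicate 6 had the lowest level of the high class for miR-146b as for miR-21. Its r was 0.842 without the libraries farthest from the median of miR-21, high replicates 6 and 1, and 0.834 with the mean of each run of codes removed. Within the classes it was 0.872 in the high class, against 0.604 in the low class.

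The next highest were miR-142-3p, a leukocyte miRNA, with an r of 0.809 (rho 0.647, adjusted permutation p = 0.0132 for r and 0.105 for rho), miR-7 with 0.790 (rho 0.726, adjusted permutation p = 0.0171 for r and 0.0392 for rho), miR-221-3p with 0.765 (rho 0.808, adjusted permutation p = 0.0194 for r and 0.0099 for rho) and miR-32 with 0.735 (rho 0.519, adjusted permutation p = 0.0335 for r and 0.181 for rho). Without high replicates 6 and 1 these were 0.515, 0.597, 0.685 and 0.497, so those of miR-142-3p and miR-32 leaned most on these libraries. Within the high class they were 0.962, 0.824, 0.813 and 0.892, and within the low class 0.648, 0.597, 0.472 and 0.072. With run means removed they were 0.805, 0.788, 0.793 and 0.757. The lowest r were -0.741 for miR-145-5p, a miRNA of smooth muscle (rho -0.734, adjusted permutation p = 0.0171 for r and 0.0299 for rho), -0.712 for miR-129a (rho -0.758, adjusted permutation p = 0.0237 for r and 0.0299 for rho) and -0.703 for miR-149 (rho -0.498, adjusted permutation p = 0.0367 for r and 0.217 for rho). Without high replicates 6 and 1 they were -0.621, -0.717 and -0.404, and with run means removed -0.756, -0.756 and -0.740.

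A few sequences made up most of miR-21. The annotated form held 44.2% of miR-21 counts on average over the 18 libraries, the 3 longer templated forms together 30.1% and the 3 shorter ones 14.8%. The single forms of highest share after the annotated one were the form 1 base longer (15.6%), the form 2 bases longer (14.5%) and the form 1 base shorter (12.4%). By length, 22-base reads of any kind held 48.1%, 24-base reads 18.1%, 23-base reads 17.6%, 21-base reads 13.5%, 20-base reads 1.69% and 19-base reads 0.937%. Forms with an added 3′ A held 2.51%, those with an added U 0.203% and those with another added base 0.925%. The remaining 268 forms with a mismatch inside the sequence held 7.24%, and the 16 forms that start elsewhere 0.0782%.

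Set beside the other miRNAs of the same libraries, miR-21 was rich in longer forms and below the median for shorter ones. Shorter or longer forms, in the table's own categories, held 44.9% ± 3.39 of miR-21 counts and 30.8% ± 1.66 of the counts of all other miRNAs (SD, n = 18), higher for miR-21 in 18 of 18 libraries; the mean over the 20 most abundant other miRNAs was 37.3%. Forms with 1 mismatch held 10.7% ± 3.98 of miR-21 counts and 17.4% ± 1.83 of the others, and forms with 2 mismatches 0.161% ± 0.0323 and 1.46% ± 0.138. The means over those 20 were 18.2% for 1 mismatch and 3.19% for 2. All 3 differences from the pooled others had an adjusted p of 7.63e-06 in exact sign-flip permutation tests, the smallest that 18 libraries can give. The annotated form held 44.2% ± 3.03 of miR-21 counts and 50.3% ± 1.36 of the other miRNAs pooled, with the same p, but the mean over the same 20 was 41.3%, which turns that difference round. Over 91 miRNAs with at least 1000 templated counts in every library, longer forms held 33.8% ± 5.31 of templated counts of miR-21, against a median of 3.13%, and 16 of the 91 had a larger share. Shorter forms held 16.6% ± 3.34 of the templated counts of miR-21, against a median of 23.8%, and 54 of the 91 had a larger share.

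The 3′ end of miR-21 lay farther out in high backfat. The longer templated forms held 33.7% ± 2.27 of miR-21 counts in the high class, against 26.4% ± 3.86 in the low class, and the shorter ones 12.5% ± 1.89 in the high class, against 17.2% ± 2.19 in the low class (n = 9 each, SD). The difference was 7.31 percentage points for the longer and -4.71 for the shorter forms, each with an exact two-sided permutation p of 2.47e-04 (adjusted over 8 kinds of form, 9.87e-04). In 7 of 9 high libraries the longer share lay above the highest low library, and in 7 of 9 the shorter share lay below the lowest low one. The annotated form held 43.1% ± 2.51 in the high class, against 45.3% ± 3.24 in the low class, which did not pass (adjusted permutation p = 0.202). As a share of exact and length forms alone, it differed by -2.73 percentage points, which passed (adjusted permutation p = 0.042).

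The form 1 base longer had a lowest share of 15.5%, a median of 17.5% and a highest of 18.6% in the high class, against 11.1%, 13.8% and 16.1% in the low class. The form 2 bases longer had 14.8%, 16.6% and 20.2% in the high class, against 8.81%, 12.8% and 15.9% in the low class. The form 1 base shorter had 8.05%, 10.21% and 12.57% in the high class, against 12.01%, 14.73% and 17.33% in the low class. For each of these 3 forms the classes overlapped only at their edges, and all 9 high values lay on the same side of the low median. The form 2 bases shorter held 1.29% ± 0.215 in the high class, against 1.83% ± 0.236 in the low class, and the form 3 bases shorter 0.754% ± 0.128 in the high class, against 0.908% ± 0.117 in the low class. Shares of 1 miRNA sum to a fixed total, so these values are not independent of each other.

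**Figure D2:**
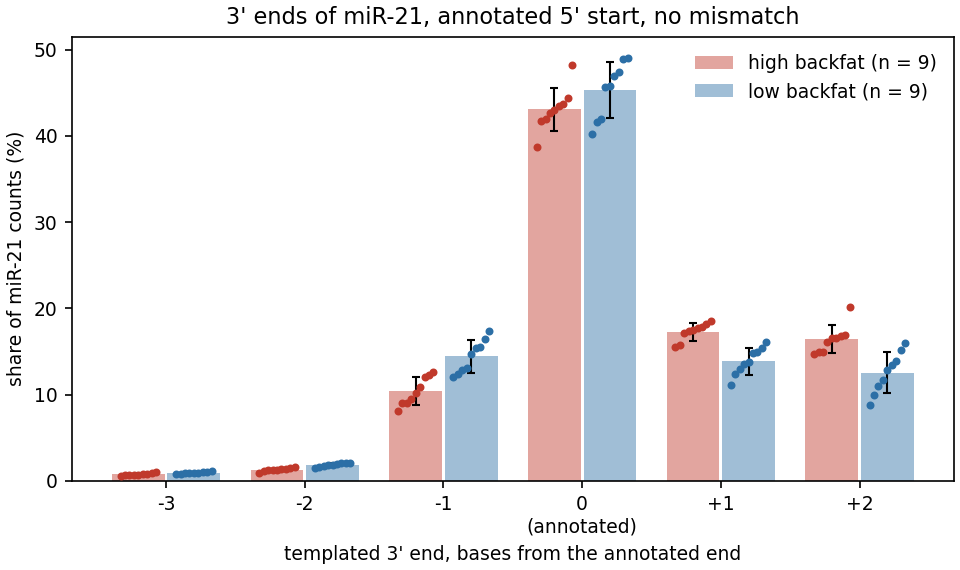
Share of miR-21 counts held by the 6 main forms with the annotated start and no mismatch, by the position of the 3′ end in bases from the annotated end, in the high (red) and low (blue) backfat classes. Bars are means with SD over 9 pigs and points are single pigs; the forms 1 and 2 bases longer are higher in the high class, while the form 1 base shorter is higher in the low class.

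On the scale of levels, which sets each form against the whole library, the longer forms had larger fold changes than the annotated and the shorter form, although these differences between forms were not tested on this scale. The form 1 base longer had a lowest value of 813, a median of 2720 and a highest of 4288 CPM in the high class, against 1248, 1411 and 1773 CPM in the low class. The form 2 bases longer had 775, 2617 and 4182 CPM in the high class, against 983, 1262 and 1835 CPM in the low class. Above the highest low library lay 8 of 9 high libraries for the first and 7 of 9 for the second form, and high replicate 6 was the lowest of all 18 for both. The form 1 base shorter had 556, 1529 and 2142 CPM in the high class, against 1125, 1642 and 1874 CPM in the low class, with ranges that lay largely over each other. The log2 fold changes were 0.80 ± 0.21 and 0.89 ± 0.25 for the forms 1 and 2 bases longer, 0.41 ± 0.21 for the annotated form and -0.01 ± 0.20 for the form 1 base shorter, whose sign turned under other settings.

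In a fit over 8025 single sequences of all miRNAs, 0 of 156 tested forms of miR-21 passed an adjusted p of 0.05 in edgeR, and 0.0% of all sequences did. At an unadjusted p under 0.05 there were 10 of the 156, all higher in the high class; over all sequences the share was 5.82% in either direction and 3.09% higher in the high class. DESeq2's Wald test called 5 forms of miR-21 (1.37% of all sequences). They were the forms 1 and 2 bases longer, the form 1 base longer with an added C, the form with the annotated end that starts 1 base earlier and the form 2 bases longer that starts 1 base later. The last 2 averaged only 1.24 and 3.57 CPM, and counts under 10 in a library are listed at 0. When sequences averaging under 10 CPM were left out, edgeR called 1, the form 1 base longer with an added C (0.237% of 1688 sequences). A positive log2 fold change was found in 115 of 156 forms of miR-21, with a median of 0.55, beside 3941 of 8025 sequences, with a median of -0.01; forms of 1 miRNA share its total and are not replicates. Between castrated males and females, 0 forms passed (0.0% of all), and 4 had an unadjusted p under 0.05, all lower in castrated males; over all sequences the share was 4.2% in either direction and 3.73% lower in castrated males.

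The form 1 base longer with an added C had the lowest p of all forms of miR-21. Its lowest value was 44.2, its median 121 and its highest 154 CPM in the high class, against 40.2, 55.5 and 67.2 CPM in the low class. In 8 of 9 high libraries it lay above the highest low library, with high replicate 6 the exception. The log2 fold change was 1.02 ± 0.21 (SE, adjusted p = 0.166 in edgeR; 1.05 ± 0.20 and adjusted p = 1.89e-04 in DESeq2). Its last base differs from the hairpin as T24C, counted from 1 at the annotated start with the hairpin's base first, so an added C and a misread form 2 bases longer cannot be told apart.

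The mean templated 3′ end gives the same shift in 1 number per library: the average position of the last base, in bases from the annotated end, over the forms with the annotated start and no mismatch. This measure and its tests were chosen after the shares had been seen, and they use the same reads. It was 0.454, 0.428, 0.352, 0.304, 0.389, 0.357, 0.342, 0.468 and 0.433 in high replicates 1 to 9, against 0.304, 0.328, 0.185, 0.123, 0.139, 0.234, 0.112, 0.275 and 0.136 in low replicates 1 to 9. In 8 of 9 high libraries it lay above the highest low library, and only high replicate 4 lay within the low range, just above low replicate 1. The means were 0.392 ± 0.0567 in the high class, against 0.204 ± 0.0833 in the low class (n = 9 each, SD), with an exact two-sided permutation p of 8.23e-05 (adjusted over 5 measures added in this way, 4.11e-04).

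The same measure was fitted with limma over the 91 miRNAs with at least 1000 templated counts in every library. miR-21 had a difference of 0.187 ± 0.0337 bases, high minus low with sex as a covariate (SE, adjusted p = 0.00378), which was the largest difference and the lowest p of the 91. It was called among 4.4% of the 91, together with miR-497 (0.0559 ± 0.0131), miR-30c-5p (0.104 ± 0.0253) and miR-127 (0.158 ± 0.0413). The difference was positive for 71 of the 91 with a median of 0.0157. The 90 others averaged -0.1999 ± 0.0182 in the high class, against -0.2166 ± 0.0132 in the low class (SD over 9 libraries each). For 0.0% of the 91 did the classes not overlap at all.

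**Figure D3:**
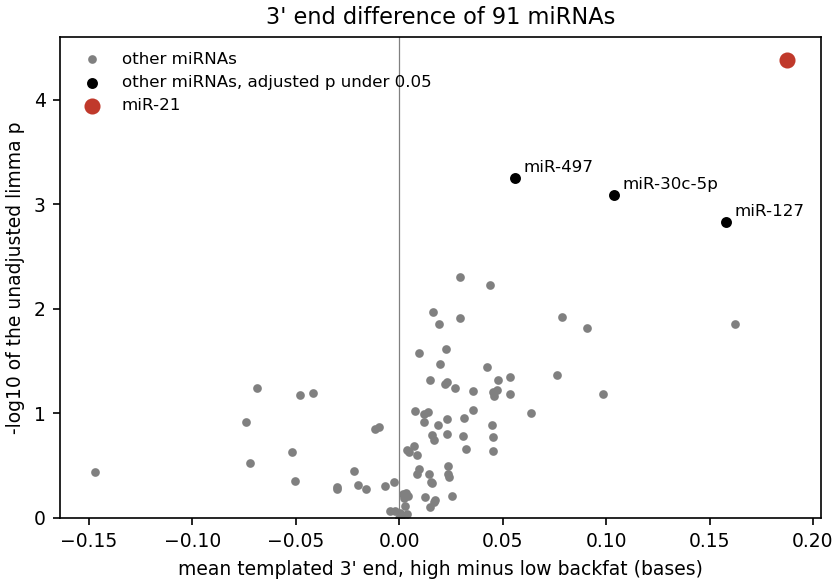
Difference of the mean templated 3′ end between high and low backfat (x axis, bases, high minus low) against -log10 of the unadjusted limma p (y axis) for 91 miRNAs. miR-21 (red) lies farthest right and highest, at 0.187 bases; the 3 other miRNAs with an adjusted p under 0.05 are black and named.

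Within the runs of codes the difference of miR-21 was 0.125 bases in U966 to U969, 0.174 in U074 to U077, 0.202 in U134 to U139 and 0.259 in AC485 to AC488. Every high library lay above every low library of its own run. How many of the other miRNAs separate in this way within every run was not counted. With the run as a covariate the difference was 0.185 ± 0.0286 (adjusted p = 0.00174 in limma). Without the run AC485 to AC488 it was 0.161 ± 0.0369 and no longer passed over the 91 miRNAs (adjusted p = 0.0795 in limma), while the exact permutation test of this single measure gave an adjusted p of 0.00333 there.

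**Figure D4:**
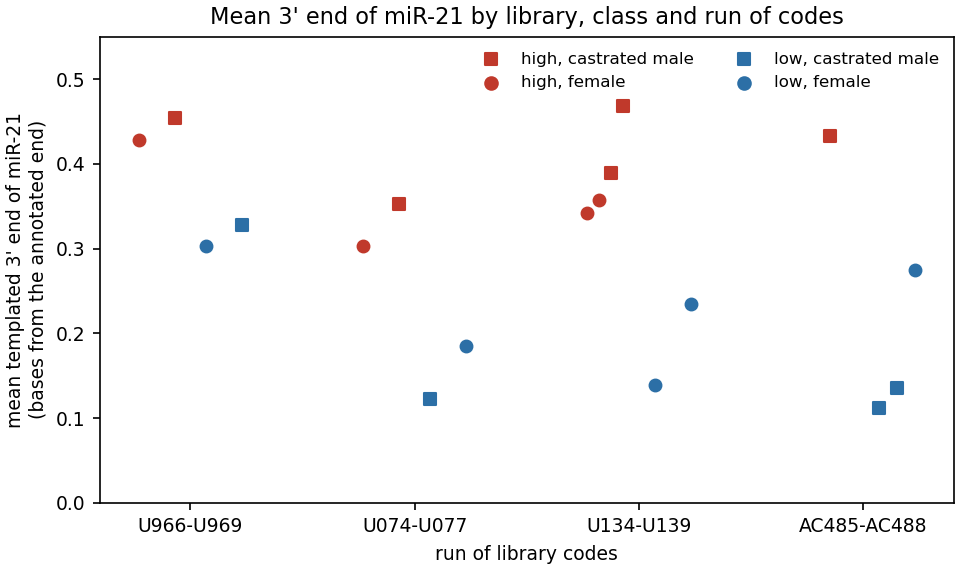
Mean templated 3′ end of miR-21 in each library (y axis, bases from the annotated end) by run of library codes, for high (red) and low (blue) backfat, castrated males (squares) and females (circles). In each of the 4 runs the high libraries lie above the low ones, and the gap is smallest in U966 to U969, at 0.125 bases between the class means.

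In castrated males the mean end was 0.419 ± 0.0479 in high and 0.175 ± 0.103 in low backfat pigs (SD, n = 5 and 4), a limma difference of 0.244 ± 0.0446 (SE, adjusted p = 0.00554, 2.2% of 91 called). In females it was 0.358 ± 0.0519 in high and 0.227 ± 0.0663 in low backfat pigs (SD, n = 4 and 5), a difference of 0.130 ± 0.0446 that did not pass (adjusted p = 0.509, 0.0% called in limma). The difference between the sexes was itself not called, at 0.114 ± 0.0631 (adjusted p = 0.934, 0.0% called in limma). The call in castrated males was lost without the run AC485 to AC488, which holds 3 of them (0.190 ± 0.0598, adjusted p = 0.573 in limma). Between castrated males and females as a whole the difference was 0.00439 ± 0.0337 (adjusted p = 0.998, 0.0% called in limma), and its sign turned under other settings.

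Reads with a mismatch inside the sequence were not used for the mean end, and their ends are given beside it. Their mean 3′ end had a lowest value of 0.349, a median of 0.421 and a highest of 0.488 bases in the high class, against 0.0781, 0.242 and 0.319 bases in the low class. All 9 high libraries lay above the 9 low ones. These reads come from the same libraries, so they are no separate replicates, and no test was made. Whether they are misread copies of the forms without a mismatch was not tested, so they are not separate evidence of the shift. How many other miRNAs separate the classes in such reads was not counted.

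Level and 3′ end did not go together throughout. Over the 18 libraries Pearson's r of log2 CPM and mean 3′ end was 0.442 (permutation p = 0.0635) and Spearman's rho 0.622 (permutation p = 0.00677). The r was 0.660 without high replicates 6 and 1, 0.519 with run means removed, 0.398 within the high class and -0.0347 within the low class. High replicate 6, with the lowest level of all 18, had a mean end of 0.357, within the range of the other high libraries.

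Added bases were read on 1 body at a time, as the share of a templated form plus its extended form. Adding A to the form 1 base shorter spells the annotated form, and adding C to the annotated form spells the form 1 base longer, so these additions cannot be told apart from the hairpin's own bases. Where the added base differs from the hairpin, as T24A on the form 1 base longer, it cannot be told apart from a misread longer templated form. This holds for every added A, U, C or other base given here. On the form 1 base longer, an added A was found in 8.02%, 8.83% and 10.6% (lowest, median, highest) of the pair in the high class, against 9.27%, 9.90% and 11.5% in the low class. In 7 of 9 high libraries it lay below the lowest low library. The means were 8.97% ± 0.833 in the high class, against 9.99% ± 0.741 in the low class (n = 9 each, SD, exact permutation p = 0.0139, adjusted 0.026).

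On the form 2 bases shorter, an added A was found in 4.70% ± 0.745 of the pair in the high class, against 5.66% ± 0.776 in the low class (exact permutation p = 0.0156, adjusted 0.026), with 9 of 9 high libraries below the low median. On the annotated form it was found in 1.39% ± 0.170 in the high class, against 1.35% ± 0.217 in the low class (exact permutation p = 0.69). An added C on the form 1 base longer was found in 4.17% ± 0.618 in the high class, against 3.54% ± 0.402 in the low class (exact permutation p = 0.0216, adjusted 0.0269). That last call was lost without the run AC485 to AC488 (0.590 percentage points, adjusted permutation p = 0.0733), without high replicate 2 or 6 or low replicate 7, and when labels were permuted within runs (0.606, adjusted permutation p = 0.0608).

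Over all bodies together, forms with an added A held 2.55% ± 0.291 of miR-21 counts in the high class, against 2.47% ± 0.328 in the low class (adjusted permutation p = 0.689), and forms with an added U 0.190% ± 0.0348 and 0.215% ± 0.0486 (adjusted permutation p = 0.327). Permuted within runs of library codes, the difference for added U was -0.0329 percentage points and passed (adjusted permutation p = 0.0474), with the high class lower in all 4 runs. Other added bases held 1.05% ± 0.195 in the high class, against 0.797% ± 0.184 in the low class, a difference of 0.257 percentage points (adjusted permutation p = 0.0224). It no longer passed without the run AC485 to AC488 (0.189 percentage points, adjusted permutation p = 0.153) or without high replicates 6 and 8 (0.233 percentage points, adjusted permutation p = 0.0554).

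The 5′ start of miR-21 was nearly fixed. Reads with the annotated start held 99.9% of miR-21 counts, those that start 1 base later 0.0512% and those that start 1 base earlier 0.0253%. Other starts together had a lowest share of 0.0522%, a median of 0.0884% and a highest of 0.121% in the high class, against 0.0495%, 0.0680% and 0.0832% in the low class. In 6 of 9 high libraries the share lay above the highest low library, and the difference of 0.0213 percentage points had an adjusted permutation p of 0.0224. Without the run AC485 to AC488, which leaves 14 libraries, the difference was 0.0237 percentage points and did not pass (adjusted permutation p = 0.0746). The lowest count listed above 0 for any form of miR-21 was 10, so rare forms of a library can be listed at 0, and the share of rare forms can also move with depth and level. miR-21 counts per library were 103418 to 607342 in the high class, against 106775 to 387124 in the low class, and the part of this in the difference was not tested.

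Mismatches inside the sequence varied between libraries far more than between classes. They held 2.14% to 12.5% of miR-21 counts in the high class, against 2.17% to 13.3% in the low class, with means of 6.87% ± 3.97 and 7.61% ± 4.75 (SD, n = 9 each, adjusted permutation p = 0.72). The 4 substitutions compared with other miRNAs are shown on the annotated length with the changed base in capitals and the annotated base first in their names, counted from 1 at the 5′ end.
A2T: tTgcttatcagactgatgttga
G3T: taTcttatcagactgatgttga
A7C: tagcttCtcagactgatgttga
A10C: tagcttatcCgactgatgttga

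A10C, over all lengths, held 2.57%, 2.96%, 3.13% and 5.10% of miR-21 counts in high replicates 1, 2, 3 and 9, and 3.50%, 4.64%, 6.22% and 5.54% in low replicates 2, 7, 8 and 9. In the other 10 libraries it held at most 0.103%. The 8 libraries took in the whole run AC485 to AC488. The rest of them were high replicate 3 of U074 to U077 and the run U966 to U969 except low replicate 1. In the same 8 libraries the same change at base 10 held 1.83% to 4.87% of the counts of 60 other miRNAs with A there, and at most 0.0781% in the other 10 libraries. A7C was at 1.16% to 3.87% in these 8 libraries and at most 0.141% elsewhere, and in 58 other miRNAs at 1.39% to 3.13% and at most 0.102%. A2T in miR-21 ranged from 0.117% to 4.24% and in 65 other miRNAs from 0.0873% to 2.63%, and the libraries low in one were low in the other. G3T ranged from 0.4286% to 1.239% in miR-21 and from 0.3572% to 1.0757% in 59 other miRNAs, without the split into 8 and 10 libraries. From the counts of miR-21 alone, a sequencing error, an edit of the RNA and a variant of the animal cannot be told apart, and the cause was not tested. The same change at the same read position in other miRNAs went up and down with it from library to library.

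**Figure D5:**
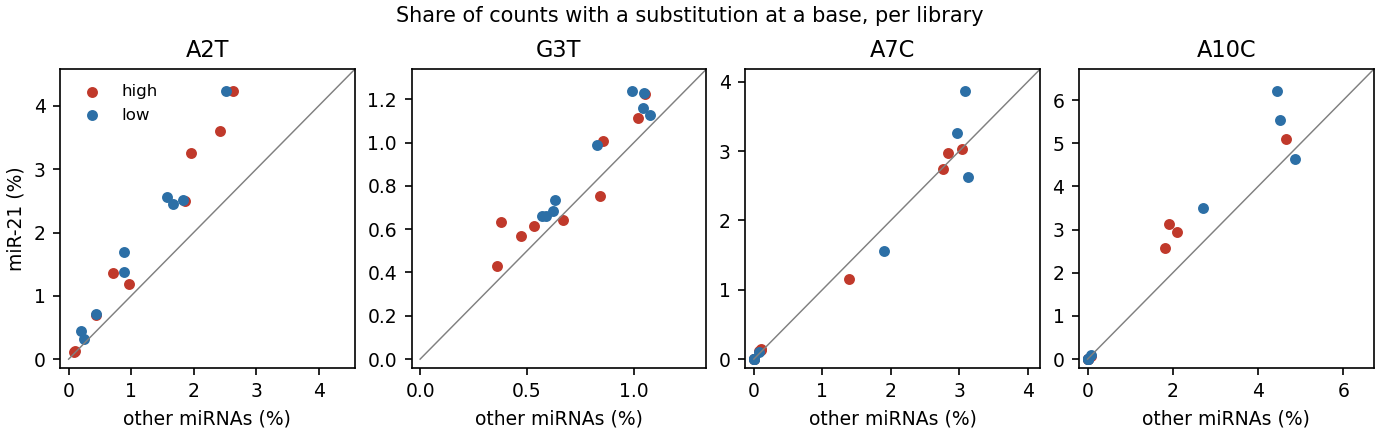
Share of counts with a given substitution in miR-21 (y axis, %) against the same substitution at the same base in other miRNAs that have that base (x axis, %), 1 point per library, high (red) and low (blue). The grey line marks equal shares; libraries high in miR-21 are high in the other miRNAs, as for A10C, which is at 2.57% or more of miR-21 counts in 8 libraries and at most 0.103% in the other 10.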

How the data were processed

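Total RNA was extracted with Trizol from frozen backfat, and libraries from the TruSeq Small RNA kit were read on an Illumina GAII as single reads of 100 bases, with 2 libraries sharing each lane, per the labels' protocols. The authors deposited raw counts, whole reads per sequence variant within a hairpin precursor, and normalised values. Dividing the deposited raw counts by the deposited normalised signal gives a constant within every library, its size factor (0.464 to 1.93). Bowtie 0.12.7, HTSeq, DESeq2 1.4.5 and Sscrofa10.2 are named, with no role, per the submitters' processing notes; for trimming, length filters and permitted mismatches the settings were not given in the sources used here. Whether precursor positions count from 0 or 1 is not stated. The tables hold 2 value columns that match no sample and were not used.

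Sequences listed under several precursors appear to have their counts divided over the listings, which no source used here states: the lowest count above 0 was 10 for 1 listing, 5 for 2 and 3 for 3, and 2791 of 2797 sequences with 2 listings had the same counts in both. Listings were summed on that reading for library totals and for each miRNA. miR-21 has no such sequence.

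Raw counts per miRNA and per sequence were tested with edgeR 4.0.16 (quasi-likelihood F test, filterByExpr with minimum count 10, TMM, Benjamini-Hochberg adjustment, threshold 0.05; high against low with sex as covariate, and a 4-cell fit of sex by class sharing 1 estimate of spread), with DESeq2 1.42.0 and limma 3.58.1 as alternatives, in R 4.3.3. SE was derived from the F statistic, and the prior count of log2 CPM was 2. Shares were compared with exact permutation tests over 48620 splits, correlations with permutations, and the mean 3′ end with limma over 91 miRNAs. Python 3.11.15 was used with NumPy 2.4.6, SciPy 1.17.1, Matplotlib 3.10.9 and pandas 2.3.3. Fits were tested on simulated data. p-values measure the spread between animals. Counts are reads without molecular identifiers. The rule for named forms took the annotated form, the 10 forms of highest share, the most abundant form of each category, 5′ start and added base, and forms called or of lowest p. G3T and the form 3 bases shorter with the other forms of the length series are shown to complete their sets. Members and lists were chosen with earlier results of these data known.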

Additional observations from a re-analysis of the deposited data

Results flagged for a closer look

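Values stood apart from the rest of their group in 2 of 66 groups of 4 to 10 libraries examined; chance flags about 1 in 20 groups. Low replicate 2 had a mean templated 3′ end of 0.3284 bases, against 0.1124 to 0.1355 in the other 3 low backfat castrated males. Low replicate 3 had 0.3275% of miR-21 counts in forms with an added U, against 0.1685% to 0.2418% in the other low libraries.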

How the results depend on the processing

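Summing all listings is the value reported; with repeated sequences at their highest listed count, the log2 fold change of total miR-21 was 0.44 (adjusted p = 0.226). Without high replicates 6 and 8 it was 0.62 (adjusted p = 0.0326) and 0.73 in castrated males (adjusted p = 0.0435), both called; leaving out 1 library gave 0.40 to 0.62 in all pigs, 0.57 to 0.87 in castrated males and -0.0434 to 0.425 in females (negative without high replicate 4). Forms of miR-21 called were 0 in edgeR, 5 in DESeq2, 1 with at least 10 CPM, 1 without high replicates 6 and 8, and 0 to 2 leaving out 1 library. The form 1 base shorter turned positive with DESeq2 size factors (0.0115), at least 10 CPM (0.0339), DESeq2 (0.0115), age (0.0142), exact and length forms only (0.0136), each listing as an entry (0.0112), no sex term (0.0102) and without high replicates 6 and 8 (0.0788); leaving out 1 library gave -0.111 to 0.0907.

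Shares by kind of form, in percentage points: without the run AC485 to AC488, added A was -0.0617, internal mismatch 1.32, other starts 0.0237 and other added bases 0.189; without high replicates 6 and 8, other added bases 0.233 and internal mismatch 0.530; within runs, added A -0.0696, added U -0.0329 (adjusted p = 0.0474, called) and internal mismatch 1.11. The annotated share was -2.73 (called, adjusted p = 0.042) with exact and length forms as denominator. The annotated share against the 20 most abundant others was 2.88. Longer and shorter shares stayed called with the same sign in all alternatives run (leaving out 1 library, 6.63 to 7.93 and -5.05 to -4.29).

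Added after seeing the data: the mean 3′ end was 0.161 without that run (not called), 0.173 to 0.206 leaving out 1 library, and in castrated males 0.190 without that run (not called). Between the sexes it was -0.00836 without high replicates 6 and 8, -0.00583 with age, and -0.0142 to 0.0187 leaving out 1 library. An added A on the annotated form was -0.0175 without that run, -0.0454 within runs, and -0.0203 to 0.068 leaving out 1 library. An added C on the form 1 base longer lost its call without that run (0.590), without high replicates 6 and 8 (0.467), within runs (0.606) and without high replicate 2 or 6 or low replicate 7 (leaving out 1 library, 0.499 to 0.755). The causes were not tested. No paired analysis was possible because the labels give no replicate numbers that pair pigs across classes. Depth limits forms under 10 counts in a library, which are listed at 0.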
